A study of Bos taurus with 11 samples.

Results

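The mitochondrial ribosomal proteins (MRP) described here are the transcripts whose RefSeq accession belongs to a bovine gene symbol that begins with MRPL or MRPS and a digit. The RefSeq gene table holds 78 such symbols, and the same 75 were listed in each of the 2 deposited tables of single blastocysts, among 8576 transcripts in the table of GATA3 KO and 12047 in the table of CDX2 KO. MRPL36, MRPL40 and MRPL55 were not analysed here. A test was run on the 73 MRP transcripts with a mean normalized read count of at least 10 over the 7 embryos of a table, and MRPL33 and MRPS9 were under that limit in both tables.

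The study asked what the loss of GATA3 or CDX2, transcription factors of the trophectoderm, changes in the bovine blastocyst. Each library was made from polyadenylated RNA of 1 whole day 7 blastocyst by the Smart-seq2 procedure, so trophectoderm and inner cell mass were read together, and fewer cells of a type and less RNA per cell cannot be told apart. All zygotes, controls included, received mRNA of BE3, a cytosine base editor that can turn codons into stop codons. The 3 WT control embryos received BE3 mRNA alone, the 4 GATA3 KO embryos BE3 mRNA with sgRNAs against GATA3, and the 4 CDX2 KO embryos BE3 mRNA with sgRNAs against CDX2. Each knockout was deposited in its own table together with the same 3 WT control embryos and was compared with them only within that table. The KO embryos carry the numbers 3 to 6 (GATA3 KO) and 2 to 5 (CDX2 KO) of the table headers.

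The mitochondrial ribosome translates the few messages of the mitochondrial genome, all of which code for subunits of the respiratory chain and of ATP synthase. Its RNAs come from mitochondrial DNA, but its proteins are encoded in the nucleus, made in the cytosol and imported. The large subunit (MRPL) forms the peptide bond and holds the exit tunnel, the small subunit (MRPS) reads the codons, and both combine proteins inherited from bacteria with proteins added during the evolution of mitochondria. In the early embryo, mitochondria are inherited from the oocyte and respiration rises as the blastocyst cavity forms.

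The counts in the tables were low for whole transcriptomes. Total counts per embryo lay between 150057 and 540775 in the table of GATA3 KO and between 100731 and 662962 in the table of CDX2 KO, where the same WT control embryos held 1.86 to 1.88 times as many counts. These totals therefore need not equal the depth of the libraries. Of the targeted genes, the normalized read count of GATA3 was 71.3 to 87.6 in WT control and 9.85 to 13.1 in GATA3 KO embryos, and that of CDX2 was 6.88 to 11.1 in WT control and 1.66 to 4.66 in CDX2 KO embryos. The paper, in contrast, reports that neither transcript clearly changed in its own knockout. CDX2 was also without overlap in the table of GATA3 KO (4.66 to 9.73 in WT control, 0 to 3.45 in GATA3 KO embryos), but on few counts. The value of 4.66 is the level of 3 counts in WT control 3. By immunostaining, the paper found CDX2 protein unchanged in GATA3 KO embryos. GATA3 in the table of CDX2 KO overlapped (96.4 to 129 in WT control, 30.3 to 123 in CDX2 KO embryos). Summed normalized counts of trophectoderm genes were 3438 to 7836 in WT control and 3751 to 5415 in GATA3 KO embryos over the 10 listed, and 4821 to 12121.5 in WT control and 2444 to 8056 in CDX2 KO embryos over the 11 listed. Markers of cumulus and granulosa cells summed to 17.3 to 23.3 in WT control and 7.32 to 30.4 in GATA3 KO embryos over 4 listed genes, and to 40.6 to 60.8 in WT control and 67.1 to 97.9 in CDX2 KO embryos over 12. Their part in the results was not tested. Counts of 4 Y-linked transcripts were 29 to 98 in the WT control embryos of the table of GATA3 KO, 0, 0 and 2 in GATA3 KO embryos 3, 4 and 5, and 68 in embryo 6. In the table of CDX2 KO these counts were 46 to 149 in WT control embryos, 0 in CDX2 KO embryos 2, 3 and 4, and 155 in embryo 5. Apart from GATA3 KO embryo 6 and CDX2 KO embryo 5, the Y-linked counts thus followed the knockout, so embryo sex and knockout cannot be told apart. No listed MRP gene lies on the X chromosome, which does not separate sex from knockout.

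In GATA3 KO blastocysts, 3 of the 73 tested MRP transcripts were higher than in WT control and none was lower. All 3 encode proteins of the large subunit: MRPL39, MRPL3 and MRPL53 rose 3.07-fold, 2.60-fold and 2.26-fold in mean normalized read count. A transcript was called at an adjusted p of 0.05 or less and a KO to WT ratio from 1.5 upward or from 0.6 downward, by limma on log2(normalized count + 1) with Benjamini-Hochberg adjustment over all 4271 transcripts tested. The 3 are 4.11% of the MRP transcripts tested, against 2.01% called in either direction and 1.55% called higher among all transcripts. The log2 fold change was above 0 in 53 MRP transcripts and below 0 in 20, with a median of 0.27 (lowest -0.87, highest 1.68), and over all transcripts the median was 0.11. The median of the MRP transcripts was 0.14 without WT control 2 (44 above 0), 0.16 after median-ratio rescaling (47 above 0) and 0.49 with a term for Y-linked counts (62 above 0). In 13 MRP transcripts (17.8%) every GATA3 KO embryo was above every WT control embryo, against 11.9% of all transcripts, and in 3 (4.11%) every KO embryo was below, against 7.05%. An unadjusted limma p under 0.05 was reached by 16 MRP transcripts (21.9%), and by 22.6% of all transcripts. In 13 (17.8%) it came with a higher level in KO, against 14.8% of all transcripts.

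MRPL39 encodes a large-subunit protein that has no bacterial counterpart and is related to threonyl-tRNA synthetase. Its normalized read count was 30.0, 10.8 and 13.99 in the WT control embryos and 69.5, 57.3, 44.1 and 53.4 in embryos 3 to 6 of GATA3 KO. The lowest KO embryo was thus above the highest control, WT control 1. The log2 fold change was 1.68 (SE 0.33, 95% confidence interval 0.99 to 2.36), with an adjusted p of 0.0211 by limma with Benjamini-Hochberg adjustment.

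MRPL3, which belongs to the bacterial core of the large subunit, sits close to the catalytic centre, and its human counterpart is mutated in a mitochondrial cardiomyopathy. Its normalized read count was 15.8, 16.2 and 4.66 in WT control and 31.8, 29.3, 35.7 and 30.4 in GATA3 KO embryos. The KO embryos lay close together, all above the controls, and WT control 3, the lowest, rests on 3 counts. The log2 fold change was 1.47 (SE 0.37, 95% confidence interval 0.70 to 2.25; limma adjusted p = 0.0468). The MRPL3 gene span overlaps an uncharacterised locus in the annotation, and reads of overlapping genes may not have been told apart by the counting.

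MRPL53 is a large-subunit protein without a bacterial counterpart. Its normalized read count was 26.04, 11.9 and 23.3 in WT control and 44.9, 43.1, 40.5 and 55.8 in GATA3 KO embryos. Again the groups did not overlap, and embryo 6 was the highest. It had a log2 fold change of 1.197 (SE 0.30, 95% confidence interval 0.56 to 1.84; limma adjusted p = 0.0483).

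All 3 calls depended on single embryos and on the settings of the test. By edgeR on the recovered counts 1 MRP transcript (1.37%) was called, against 2.95% of all transcripts. DESeq2 also called 1 (1.37%), against 3.77%. It was MRPL39 both times, with adjusted p of 0.0312 and 0.011999. The MRP share was thus below that of all transcripts in both, unlike in limma. MRPL3 had adjusted p of 0.0780 by edgeR and 0.0923 by DESeq2, and MRPL53 had 0.0570 and 0.0698. Neither passed limma after quantile normalization or median-ratio rescaling, and none of the 3 passed without the trended prior (adjusted p of 0.0793 to 0.0930) or with a term for Y-linked counts (0.239 to 0.384). That term leaves 1 KO embryo, number 6, against the controls, and the log2 fold changes were then 1.41 for MRPL3, 1.62 for MRPL39 and 1.48 for MRPL53. Left-out embryos also ended calls. MRPL39 did not pass limma without WT control 2 (adjusted p = 0.111), WT control 3 (0.0623), GATA3 KO embryo 3 (0.0869) or embryo 4 (0.0508). Its log2 fold change lay between 1.39 and 1.66 in these fits and was 2.08 without WT control 1, where it passed. MRPL3 and MRPL53 passed in 1 of the 7 fits that left out an embryo, the one without WT control 1. In these 7 fits the log2 fold change of MRPL3 lay between 0.95, without WT control 3, and 1.75, without WT control 2, and that of MRPL53 between 0.87, without WT control 2, and 1.40. Without a single KO embryo they stayed between 1.42 and 1.51 and between 1.10 and 1.25.

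**Figure D1:**
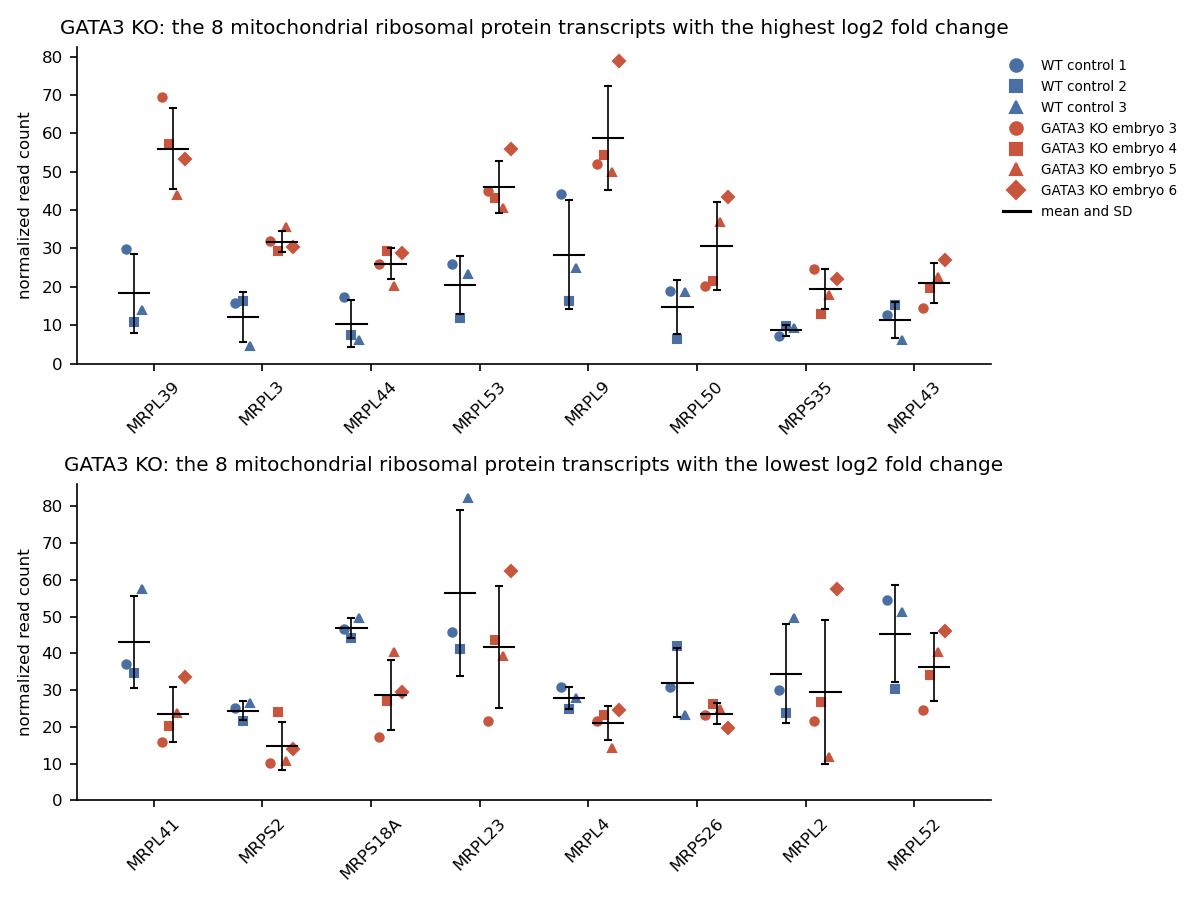
Normalized read count (linear axis from 0) of the 8 MRP transcripts with the highest (top) and the 8 with the lowest (bottom) log2 fold change in the table of GATA3 KO; each point is 1 embryo, blue for WT control and red for GATA3 KO, with marker shape giving the embryo, and black lines give the mean and SD. MRPL39, MRPL3 and MRPL53 show all 4 KO embryos above all 3 controls, whereas among the lowest 8 the groups separate only in MRPL41, MRPS18A and MRPL4.

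Next to the 3 calls in log2 fold change were MRPL44 and MRPL9, both of the large subunit, which holds 27 tested transcripts with and 19 without a bacterial counterpart among the 73. MRPL44, which stood between MRPL3 and MRPL53 in log2 fold change, has a fold like that of RNase III and is another cardiomyopathy gene in humans. It had normalized read counts of 17.4, 7.57 and 6.22 in WT control and 26.1, 29.3, 20.2 and 28.7 in GATA3 KO embryos. Its log2 fold change was 1.36 (SE 0.36) with a limma adjusted p of 0.0518, just short of the threshold. MRPL9, the counterpart of bacterial ribosomal protein L9, had 44.2, 16.2 and 24.9 in WT control and 52.1, 54.3, 50.0 and 78.8 in KO embryos. Its log2 fold change was 1.11 (SE 0.32; limma adjusted p = 0.0634). In both, the KO and control embryos did not overlap.

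MRPL50 (log2 fold change 1.07), the small-subunit protein MRPS35 (1.04) and MRPL43 (0.88) completed the 8 highest, with limma adjusted p between 0.111 and 0.174. MRPS35 had a control mean of 8.72, under the minimum of 10, and so entered the test only through the KO embryos, as did MRPS11 with 9.20. MRPS35 is 1 of the 13 transcripts above without overlap and 1 of the 13 higher in KO with an unadjusted limma p under 0.05. Both counts thus hold a member that could enter only by being higher in KO. For MRPS35 the normalized read count was 7.10, 9.73 and 9.33 in WT control and 24.6, 12.9, 17.9 and 22.2 in GATA3 KO embryos. Its groups did not overlap, nor did those of MRPL50, while GATA3 KO embryo 3 lay below WT control 2 in MRPL43. The gene span of MRPS35 overlaps that of another gene in the annotation.

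Of the other 6 tested transcripts with all GATA3 KO embryos above all controls, MRPL10, MRPL45 and MRPS30 are given with their neighbours in the ribosome. MRPL22, which lines the exit tunnel, had 24.5, 20.5 and 17.1 in WT control and 40.5, 26.7, 47.6 and 32.8 in KO embryos (log2 fold change 0.79, SE 0.29; limma adjusted p = 0.132). MRPS31, a small-subunit protein without a bacterial counterpart, had 23.7, 14.05 and 9.33 in WT control and 24.6, 34.5, 23.8 and 29.6 in KO embryos (0.88, SE 0.33; limma adjusted p = 0.138). In MRPL16, of the large-subunit core, the values were 28.4, 21.6 and 26.4 in WT control and 30.4, 37.5, 39.3 and 34.5 in KO embryos (0.46, SE 0.27; limma adjusted p = 0.322). In each of them the lowest KO embryo stood only just above the highest control. The gene spans of MRPL22, MRPS31 and MRPL16 overlap those of other genes in the annotation. In all, 21 of the 75 listed MRP genes have such an overlap, MRPL45 among them.

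At the other end stood MRPL41, a large-subunit protein without a bacterial counterpart that has also been described as a partner of BCL2. Its normalized read count was 37.1, 34.6 and 57.5 in WT control and 15.9, 20.2, 23.8 and 33.7 in GATA3 KO embryos, so that all KO embryos were below all controls. This gave a log2 fold change of -0.87 (SE 0.31) and a limma adjusted p of 0.120. MRPS18A, 1 of 3 relatives of bacterial S18, had 46.6, 44.3 and 49.7 in WT control and 17.4, 27.1, 40.5 and 29.6 in KO embryos. Its groups did not overlap either, and its log2 fold change was -0.75 (SE 0.30; limma adjusted p = 0.157). MRPS2, of the bacterial core of the small subunit, had 25.3, 21.6 and 26.4 in WT control, and 10.1, 24.1, 10.7 and 13.96 in KO embryos. Embryo 4 lay among the controls, and the log2 fold change was -0.77 (SE 0.34; limma adjusted p = 0.197).

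The remaining 5 of the 8 lowest in GATA3 KO had log2 fold changes between -0.45 and -0.30 and limma adjusted p of 0.426 or more. They were MRPL23, MRPL4 and MRPL2, proteins of the bacterial core, and MRPS26 and MRPL52, which have no bacterial counterpart. Of these the groups separated only in MRPL4, with 30.8, 24.9 and 28.0 in WT control and 21.7, 23.3, 14.3 and 24.6 in KO embryos, the closest embryos being 24.9 and 24.6.

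By subunit and origin, the shares above 0 in GATA3 KO stand beside 57.2% of all transcripts tested. Of the large-subunit transcripts with a bacterial counterpart, 19 of 27 were above 0 (median log2 fold change 0.27), and of those without one 14 of 19 (median 0.27). Of the small-subunit transcripts, 11 of 14 with a bacterial counterpart (median 0.20) and 6 of 9 without one (median 0.36) were above 0, and none was called. These counts hold MRPS11 and MRPS35 respectively, which reached the minimum only through the KO embryos and so could enter only by being higher in KO. The 4 transcripts left out of these groups, MRPS18A, MRPS18B, MRPS28 and MRPS36, had 3 above 0 and MRPS18A below. The difference from all transcripts was not tested. The medians of these groups span 0.20 to 0.36, beside single members that reached from -0.87 to 1.68.

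**Figure D2:**
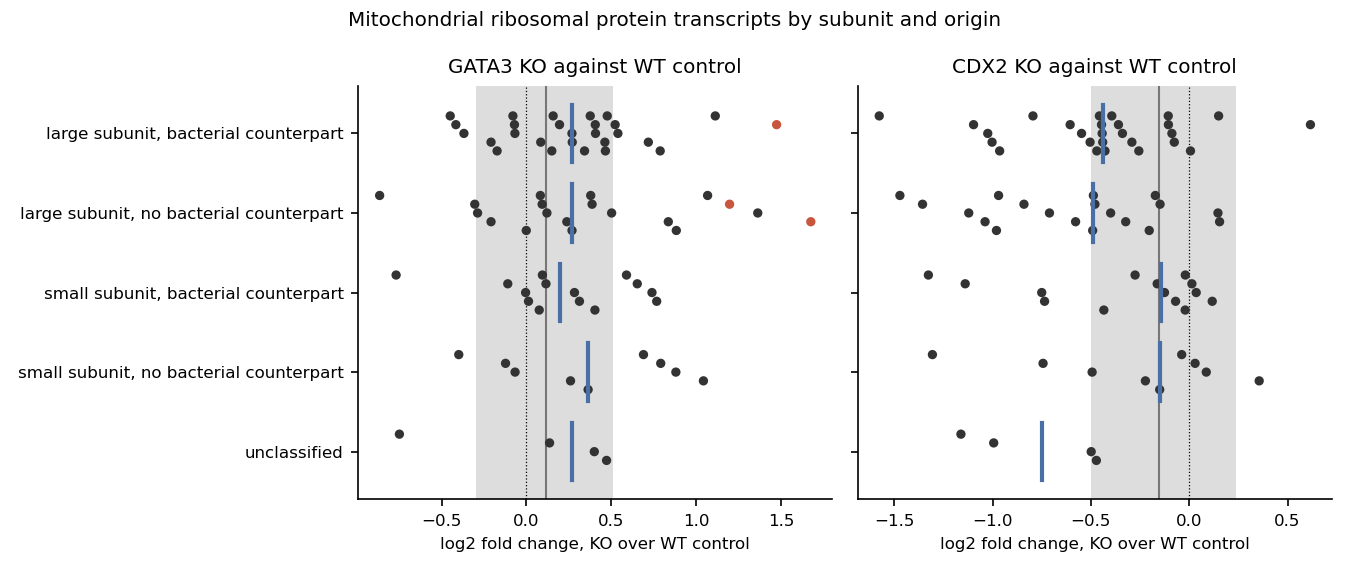
Log2 fold change of KO over WT control (x axis) for each tested MRP transcript, by subunit and presence of a bacterial counterpart, in GATA3 KO (left) and CDX2 KO (right); points are transcripts, red if called by limma, blue bars are group medians, the grey line and band are the median and the quartiles of all transcripts tested, and vertical offsets only separate points. In GATA3 KO the group medians lie between 0.20 and 0.36, and in CDX2 KO between -0.75 and -0.14.

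The stalk of the large subunit, which recruits the elongation factors, is made of MRPL10, MRPL11 and MRPL12. MRPL12, the protein that also binds the mitochondrial RNA polymerase, was the steadiest MRP transcript of the table of GATA3 KO. Its normalized read count was 58.4, 64.8 and 69.9 in WT control and 65.1, 55.1, 56.0 and 69.8 in GATA3 KO embryos, a range of 1.27-fold between the lowest and the highest embryo. Its log2 fold change was -0.07 (95% confidence interval -0.58 to 0.44). MRPL10, which anchors MRPL12, had 20.5, 18.4 and 24.9 in WT control and 28.9, 32.3, 32.2 and 51.7 in KO embryos. Its groups did not overlap, with a log2 fold change of 0.72 (SE 0.29; limma adjusted p = 0.165). MRPL11, at the base of the stalk, had a log2 fold change of 0.46 (SE 0.27; limma adjusted p = 0.317), and its groups overlapped.

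Proteins around the exit of the polypeptide tunnel, where new chains leave toward the inner membrane, had a median log2 fold change of 0.12 over 6 transcripts in GATA3 KO. Among them MRPL45, the anchor to the membrane, had 30.0, 23.8 and 23.3 in WT control and 37.6, 31.02, 40.5 and 37.8 in KO embryos. All KO embryos were above all controls, with a log2 fold change of 0.50 (SE 0.27; limma adjusted p = 0.279). MRPL23, of the same region, had 45.8, 41.1 and 82.4 in WT control and 21.7, 43.5, 39.3 and 62.4 in KO embryos, and its log2 fold change was -0.45 (SE 0.34). The 4 transcripts of the central protuberance had a median of 0.09.

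Several members sit in an unusual place or have a second job. MRPS18A, MRPS18B and MRPS18C are 3 relatives of 1 bacterial protein, the first built into the large and the other two into the small subunit. In GATA3 KO their log2 fold changes were -0.75 (SE 0.30), 0.47 (SE 0.33) and 0.59 (SE 0.31), and none passed the test. MRPS30, in spite of its name a protein of the large subunit, had 24.5, 14.05 and 12.4 in WT control and 44.9, 26.7, 25.01 and 26.3 in KO embryos. Its groups did not overlap, but the closest embryos, 24.5 and 25.01, were almost level, and the log2 fold change was 0.84 (SE 0.33; limma adjusted p = 0.147). MRPL58, which frees chains from stalled ribosomes, and MRPS36, which also belongs to the oxoglutarate dehydrogenase complex, had log2 fold changes of 0.12 (SE 0.31) and 0.40 (SE 0.36).

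MRPS9, a small-subunit protein of the bacterial core, was below the minimum for the test. In the table of GATA3 KO its normalized read count was 6.31, 4.32 and 0 in WT control, where it rests on 8, 4 and 0 counts, and 10.1, 12.5, 7.15 and 10.7 in KO embryos. The groups did not overlap, with a 2-sided exact permutation p of 0.0286, the smallest that the 35 splits of the embryos can give, and MRPS9 did not pass limma when the minimum was dropped. A share of 0 counts in WT control 3 allows up to 4.66 normalized counts. In the table of CDX2 KO it had 8.88, 5.53 and 0 in WT control and 12.3, 6.99, 9.95 and 12.9 in KO embryos, which overlapped (exact permutation p = 0.0571). MRPL33 had normalized read counts of at most 10.7 and 11.3 in the tables of GATA3 KO and CDX2 KO. Its groups overlapped in both, with exact permutation p of 0.171 and 0.943.

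Summed over all 75, the MRP transcripts took between 0.513% and 1.14% of an embryo's counts. In the table of GATA3 KO the share was 0.883%, 0.756% and 0.973% in WT control and 0.933%, 1.04%, 0.949% and 1.14% in embryos 3 to 6 of GATA3 KO. The KO embryos 4 and 6 were above every control, and embryos 3 and 5 were below WT control 3, so the groups overlapped. In the table of CDX2 KO the share was 0.883%, 0.742% and 0.960% in WT control and 0.718%, 0.513%, 0.881% and 1.01% in embryos 2 to 5 of CDX2 KO. Embryo 3 was the lowest and embryo 5 the highest of that table. The 95% Wilson intervals of these shares, which cover counting error only, ran from 0.471% to 0.559% in CDX2 KO embryo 3 and from 0.991% to 1.04% in embryo 5.

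**Figure D3:**
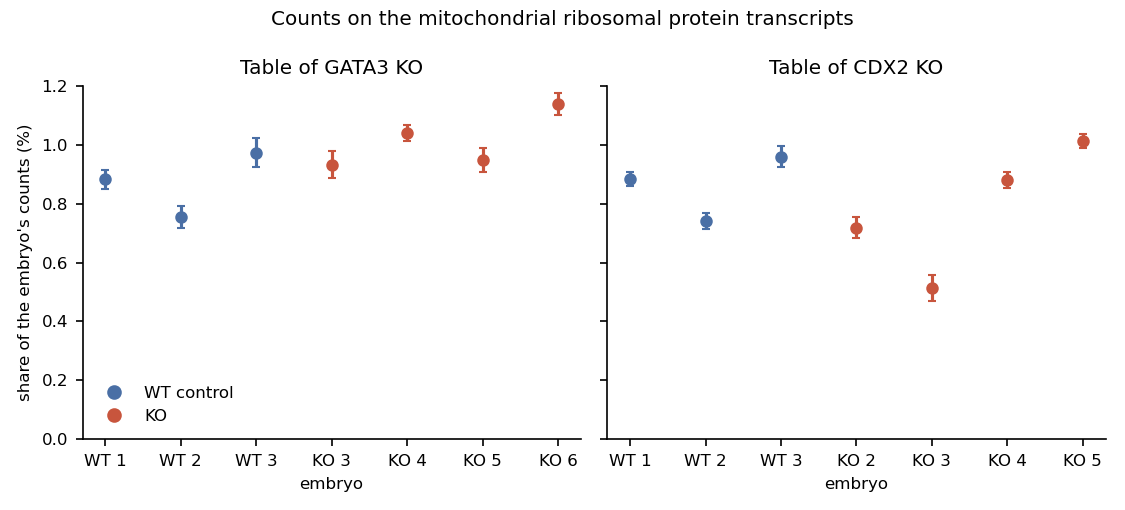
Share of each embryo's counts on the 75 listed MRP transcripts (y axis, percent, from 0) in the table of GATA3 KO (left) and of CDX2 KO (right), 1 point per embryo, blue for WT control and red for KO, with 95% Wilson intervals as bars. The shares run from 0.756% to 1.14% on the left, and on the right from 0.513% in CDX2 KO embryo 3 to 1.01% in embryo 5.

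In CDX2 KO blastocysts no MRP transcript was called. The count was 0 of 73 by limma, against 0% of the 5719 transcripts tested, and 0 also by edgeR and by DESeq2 on the recovered counts, which called 1 (0.0175%) and 10 (0.175%) of all transcripts. No MRP transcript reached an unadjusted limma p under 0.05, against 3.27% of all transcripts. The log2 fold change was above 0 in 11 and below 0 in 62, with a median of -0.44 (lowest -1.58, highest 0.62), and the median of all transcripts was -0.15. By edgeR and DESeq2 on the recovered counts 26 and 28 were above 0, with medians of -0.17 and -0.14, and with a term for Y-linked counts the median turned to 0.35 (61 above 0). In 0 MRP transcripts were all KO embryos above all controls, against 2.52% of all transcripts, and in 1 (1.37%) they were all below, against 3.36%.

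A single embryo carried much of this lean. CDX2 KO embryo 3 had the lowest total count of the series, with 517 counts on the MRP transcripts, and 9 of the 75 were at 0 and 26 at 3 counts or fewer. It was the lowest KO embryo for 52 of the 73 transcripts tested, and its median deviation from the controls was -1.28 on the log2 scale, beside -0.52, 0.14 and 0.35 in embryos 2, 4 and 5. Over all transcripts the same median was -0.39 in embryo 3. The nuclear-encoded subunits of oxidative phosphorylation were also lowest there, with 1.89% of counts, against 2.74% to 4.09% in the other embryos of the table. Without embryo 3 the median of the MRP transcripts was -0.05, with 31 above 0 and 42 below, and that of all transcripts -0.04. Without embryo 2 the median was -0.28, with 17 above 0.

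The 8 lowest in CDX2 KO were MRPL19, MRPL50, MRPL49, MRPS14, MRPS23, MRPS36, MRPS24 and MRPL58, with log2 fold changes between -1.58 and -1.12 and limma adjusted p of 0.900. MRPL19, of the bacterial core of the large subunit, had 38.7, 15.0 and 39.0 in WT control and 12.3, 0, 30.7 and 21.5 in CDX2 KO embryos 2 to 5. Its SE was 0.95, and the log2 fold change was -0.48 without embryo 3. MRPS14, of the small subunit, had 52.7, 41.9 and 63.0 in WT control and 49.0, 0, 40.6 and 93.4 in KO embryos. Embryo 5 was the highest and embryo 3 the lowest of all, and the log2 fold change of -1.33 (SE 1.15) turned to 0.14 without embryo 3. That of MRPL58 went from -1.12 (SE 1.15) to 0.35.

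MRPS23, a small-subunit protein without a bacterial counterpart, had an unadjusted limma p of 0.0584. Its normalized read count was 59.0, 24.5 and 28.7 in WT control and 7.35, 4.66, 22.4 and 38.1 in CDX2 KO embryos, a log2 fold change of -1.31 (SE 0.63) and of -0.86 without embryo 3. Embryos 2, 3 and 4 were below all controls and embryo 5 among them. MRPS24, of the bacterial core, had 54.6, 33.96 and 50.4 in WT control and 22.1, 4.66, 39.8 and 36.0 in KO embryos. There embryos 4 and 5 lay among the controls. The one transcript whose groups separated was MRPS18A, with 73.0, 60.0 and 71.1 in WT control and 58.8, 41.9, 38.1 and 59.1 in KO embryos, but the closest embryos, 60.0 and 59.1, were nearly level, and the log2 fold change was -0.47 (SE 0.38; limma adjusted p = 0.900).

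**Figure D4:**
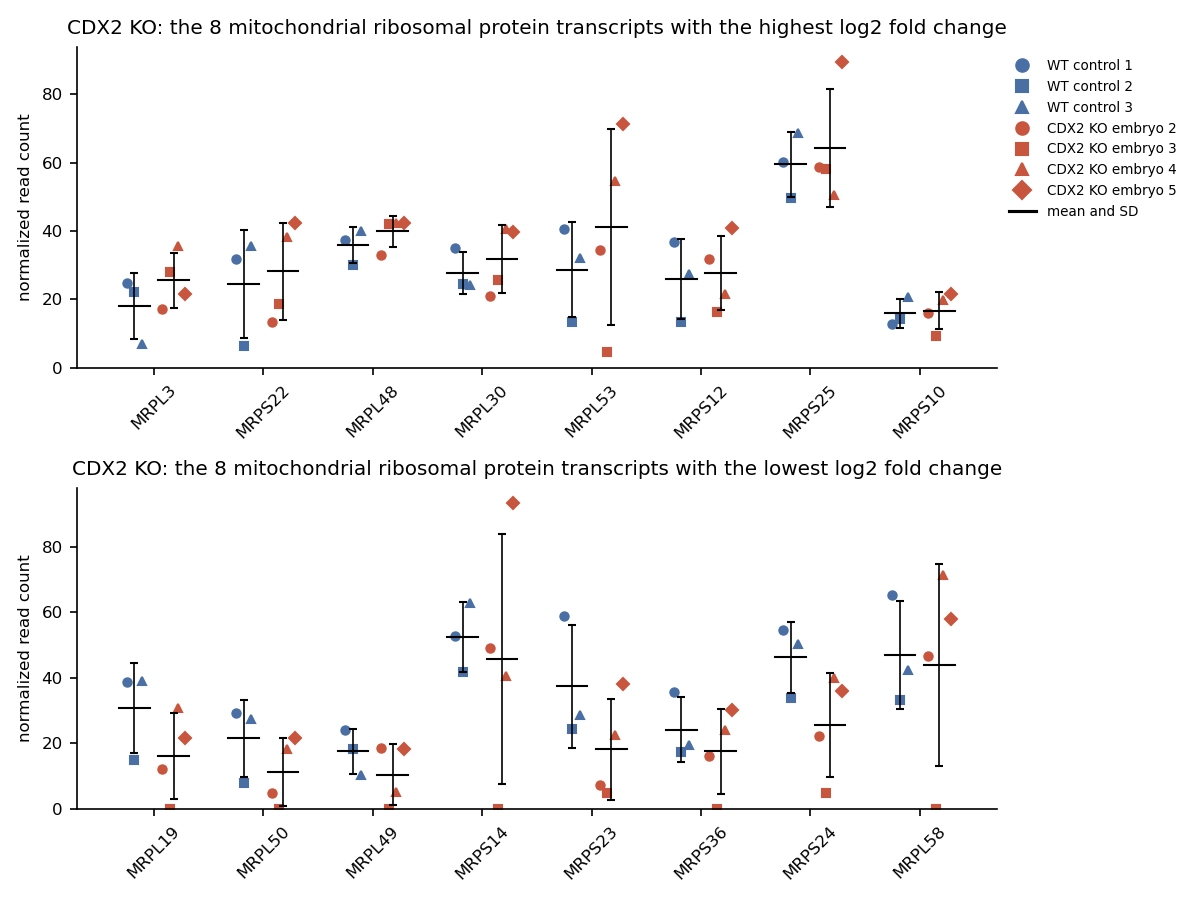
Normalized read count (linear axis from 0) of the 8 MRP transcripts with the highest (top) and the 8 with the lowest (bottom) log2 fold change in the table of CDX2 KO; points are embryos, blue for WT control and red for CDX2 KO, with marker shape giving the embryo, and black lines give the mean and SD. Red squares mark CDX2 KO embryo 3, which is at 0 in 6 of the lowest 8 and at 4.66 in MRPS23 and MRPS24.

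The highest log2 fold changes in CDX2 KO were those of MRPL3 (0.62, SE 0.49), MRPS22 (0.36, SE 0.60), MRPL48, MRPL30, MRPL53, MRPS12, MRPS25 and MRPS10, the last 6 between 0.04 and 0.15. MRPS22 is a small-subunit protein known from human mitochondrial disease. MRPL3 had 24.7, 22.1 and 6.88 in WT control and 17.2, 28.0, 35.7 and 21.5 in KO embryos, which overlapped. MRPL48, of the central protuberance, varied the least of all MRP transcripts in this table, with 37.4, 30.0 and 40.1 in WT control and 33.1, 41.9, 42.3 and 42.4 in KO embryos. The 95% confidence interval of its log2 fold change ran from -0.64 to 0.95, which takes in changes of either sign.

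By subunit, 24 of 27 large-subunit transcripts with a bacterial counterpart and 17 of 19 without one were below 0 in CDX2 KO, with medians of -0.44 and -0.49. In the small subunit these were 11 of 14 and 6 of 9, with medians of -0.14 and -0.15, and the 4 transcripts outside these groups were all below 0. Among all transcripts tested 39.5% were above 0. MRPL12 of the stalk had 86.9, 87.7 and 97.4 in WT control and 46.6, 53.6, 66.3 and 98.3 in KO embryos. Embryos 2, 3 and 4 were below every control and embryo 5 above, and the log2 fold change was -0.50 (SE 0.40; limma adjusted p = 0.900). MRPL21, of the large-subunit core, was another transcript with a high control count. It had 86.3, 68.7 and 106.6 in WT control and 45.3, 39.6, 74.6 and 116 in CDX2 KO embryos, which overlapped, with a log2 fold change of -0.44 (SE 0.45), and in GATA3 KO its log2 fold change was -0.07 (SE 0.26). MRPL23 had 68.5, 54.5 and 113 in WT control and 73.5, 44.3, 89.6 and 81.1 in CDX2 KO embryos, a log2 fold change of -0.11 (SE 0.42).

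The same named members in CDX2 KO gave wide intervals. MRPL11, at the base of the stalk, had 131, 66.3 and 65.3 in WT control and 60.1, 18.6, 92.1 and 148 in CDX2 KO embryos, from the lowest embryo 3 to the highest embryo 5, with a log2 fold change of -0.39 (SE 0.60). MRPL10 of the stalk had -0.26 (SE 0.42), and the membrane anchor MRPL45 -0.40 (SE 0.46). MRPS18B had -0.50 (SE 0.51), MRPS18C -0.75 (SE 0.59) and MRPS30 -0.84 (SE 0.66). Few counts stood behind MRPS35 (-0.22, SE 0.58), MRPS11 (-0.74, SE 0.83; it reached the minimum through the controls alone) and MRPL44, and MRPL44 had 26.01, 9.48 and 9.17 in WT control and 2.45, 4.66, 19.9 and 24.7 in KO embryos, where embryos 2 and 3 rest on 2 counts each. Its log2 fold change was -0.49 (SE 0.76), and the limma adjusted p of these members lay between 0.900 and 0.952.

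The 3 transcripts called in GATA3 KO are set here beside their values in CDX2 KO; the controls of the 2 comparisons are the same embryos. MRPL39 had a log2 fold change of 1.68 (SE 0.33) in GATA3 KO and of -0.97 (SE 1.06) in CDX2 KO, where its normalized read counts were 47.6, 15.8 and 19.5 in WT control and 12.3, 0, 44.0 and 47.8 in KO embryos. MRPL3 had 1.47 (SE 0.37) and 0.62 (SE 0.49). MRPL53 had 1.197 (SE 0.30) and 0.15 (SE 0.75), and in CDX2 KO its embryo 3 was at 4.66 and its embryos 4 and 5 at 54.7 and 71.4. Whether the effects of the knockouts differ was not tested.

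Differences between single blastocysts of a group were large beside most of the fold changes. WT control 2 was the lowest control for 45 of the 73 MRP transcripts in the table of GATA3 KO, where its median deviation was -0.23 on the log2 scale, beside 0.14 and 0.12 in WT control 1 and 3. The GATA3 KO embryos had median deviations of 0.22, 0.31, 0.16 and 0.49, embryo 6 being the highest KO embryo for 32 of the 73. In MRPS22 the controls spanned 4.32 to 24.9, wider than the KO embryos at 16.7 to 28.9. In MRPS7, which is of the small-subunit core, embryo 6 stood at 61.6 and the other KO embryos at 9.53 to 23.7.

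**Figure D5:**
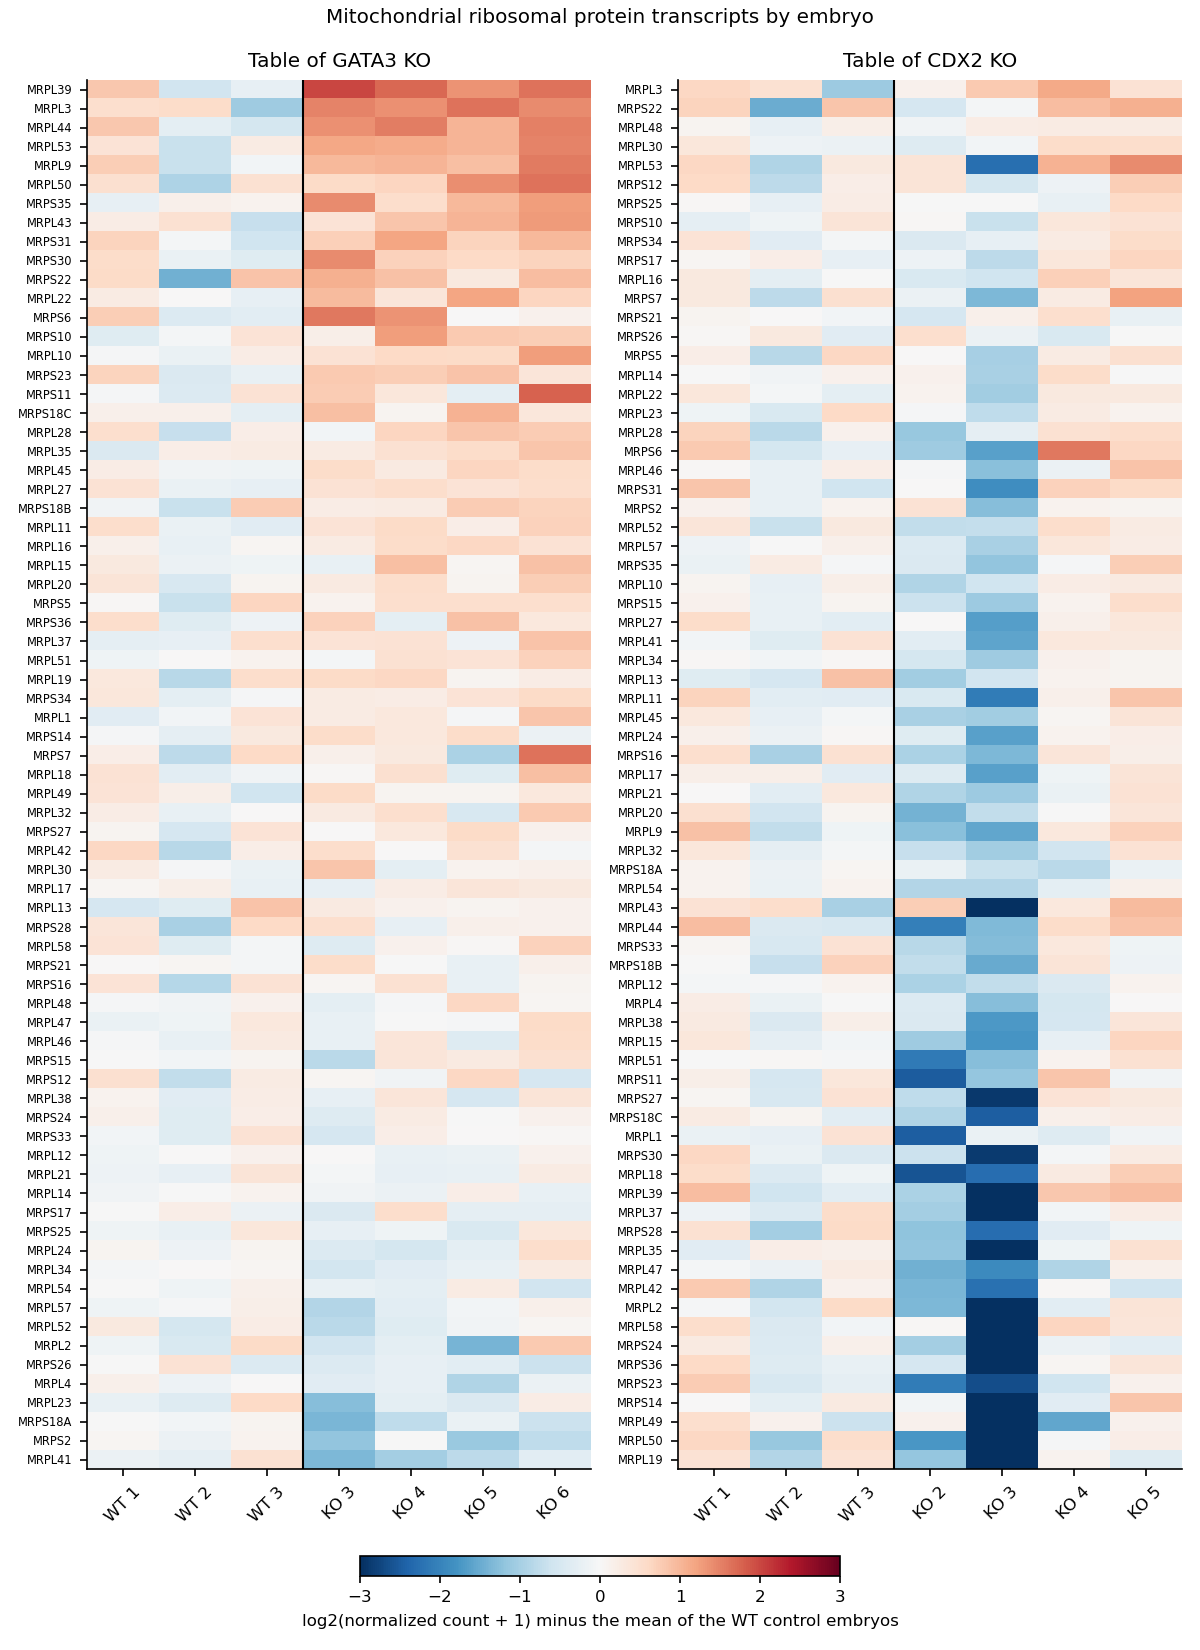
Log2(normalized count + 1) of each tested MRP transcript minus its mean over the WT control embryos, in each embryo (columns) of the table of GATA3 KO (left) and of CDX2 KO (right), with transcripts (rows) ordered by log2 fold change within each table; the colour runs from blue (lower) to red (higher) and is capped at 3 in both directions. CDX2 KO embryo 3 is blue in most rows, and in the table of GATA3 KO the KO columns are mostly red except in the lowest rows.

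Genes that build and serve the mitochondrial ribosome were looked at beside its proteins, and none of them was called in GATA3 KO or CDX2 KO by limma. Of 5 further mitoribosome proteins with other names, DAP3, a GTP-binding protein of the small subunit, had the highest log2 fold change in both knockouts (0.65 in GATA3 KO and 0.43 in CDX2 KO). The lowest were PTCD3 (-0.30) in GATA3 KO and AURKAIP1 (-1.70, SE 1.13) in CDX2 KO. Among the assembly factors, 5 of 12 tested were above 0 in GATA3 KO (median -0.15) and 8 of 18 in CDX2 KO (median -0.05). MTERF4, which brings a methyltransferase to the large subunit, averaged 8.73 ± 0.978 normalized counts (SD) over 3 WT control embryos and 22.7 ± 4.04 (SD) over 4 GATA3 KO embryos. With that control mean under the minimum of 10, it entered the test only through the KO embryos. In the same table C1QBP, a matrix chaperone, was next (0.86), and MPV17L2 (-0.50) and the RNA chaperone ERAL1 (-0.45) were lowest. In CDX2 KO the ends were the helicase DHX30 (0.95) and MTG2 (0.94), and MPV17L2 (-1.87, SE 0.97) and RPUSD3 (-1.78, SE 0.89).

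The factors that drive mitochondrial translation had medians of 0.43 in GATA3 KO and -0.16 in CDX2 KO over 9 tested. The release factor MTRF1L (0.68) and the recycling factor GFM2 (0.67, with a control mean under the minimum) were highest in GATA3 KO, and the elongation factor TUFM (-0.42) and the RNA-binding SLIRP (-0.26) lowest. In CDX2 KO the initiation factor MTIF3 (0.26) and MTRF1L (0.25) were highest and the elongation factor TSFM (-0.84, SE 0.998) and SLIRP (-0.60, SE 0.59) lowest, although the mean normalized count of TSFM was nearly level, 19.5 in WT control and 19.4 in CDX2 KO. Of the enzymes that charge mitochondrial tRNAs, 4 of 9 tested were above 0 in GATA3 KO, from TARS2 (-1.01) and VARS2 (-0.74) to GATC (0.69) and WARS2 (0.91), and 6 of 13 in CDX2 KO, from CARS2 (-0.46) and QRSL1 (-0.44) to SARS2 (0.57) and AARS2 (1.05). The minimum bears on these short lists. In GATA3 KO, 3 of the 12 assembly factors, 1 of the 9 translation factors and 6 of the 9 tRNA-charging enzymes reached it through 1 group alone, GATC and WARS2 through the KO embryos and TARS2 and VARS2 through the controls. In CDX2 KO this held for 3 of 18, 1 of 9 and 1 of 13, among them MTG2 and MTIF3 through the KO embryos and RPUSD3 through the controls. The counts and medians of these lists are descriptions of what passed.

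As comparators, the cytosolic ribosomal proteins and the nuclear-encoded subunits of oxidative phosphorylation were taken, again with 0 calls in both tables by limma. In GATA3 KO, 65 of 76 cytosolic ribosomal protein transcripts were below 0 (median log2 fold change -0.37). Of them 25 had an unadjusted limma p under 0.05, and 21 had every KO embryo below every control. For oxidative phosphorylation 45 of 75 transcripts were above 0 (median 0.03), and 14 had an unadjusted limma p under 0.05. In 12 of these 75 every KO embryo was above every control, and in 4 below. The MRP transcripts had 53 of 73 above 0 and a median of 0.27, with 13 separated upward and 3 downward. Of all transcripts, 22.6% had an unadjusted limma p under 0.05, 11.9% had every KO embryo above every control and 7.05% below. In CDX2 KO the medians were -0.42, -0.44 and -0.44 for cytosolic ribosomal proteins, oxidative phosphorylation and MRP, and no transcript of these had an unadjusted limma p under 0.05. The difference between the lists was not tested.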

How the data were processed

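Data were from 11 single blastocysts of day 7. According to the methods of the study, reads were trimmed with Trimmomatic, mapped to ARS-UCD1.2 with HISAT2 and counted with featureCounts, and the rows of the tables are RefSeq transcript accessions; strand setting and the handling of shared reads are not given in the sources used here. The authors deposited, per knockout, a signal for each embryo, namely counts divided by a DESeq2 size factor of that table. In every embryo 100% of values were whole multiples of 1 count (tolerance 0.01), so counts were recovered. The deposited log2 fold changes, Wald statistics (recorded as a score) and p-values of the authors' own comparisons were not used. The 2 tables were normalized separately. Accessions were named through the RefSeq gene table of assembly ARS-UCD2.0 (98.6% of transcripts in each), from which no coordinates are printed. No column of embryo values was left unused.

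Fits used limma 3.58.1 (R 4.3.3) on log2(value + 1) with a trended prior, and took in every transcript whose mean reached 10, and Benjamini-Hochberg adjustment ran over all of these. The fold change and adjusted p limits followed the methods of the study. Standard errors, confidence intervals and log2 fold changes are on this scale, which understates changes of low transcripts. Where an embryo is at 0, the scale can also enlarge a change. In CDX2 KO, MRPL58 had a log2 fold change of -1.12, with a mean normalized read count 0.94 times that of WT control. Two-sided exact permutation tests over the 35 splits were used for single transcripts below the minimum. Alternatives were other pseudocounts, filters, scalings and fold limits, a prior without trend, the count models of DESeq2 1.42.0 and edgeR 4.0.16, a term for Y-linked counts, and leaving out each embryo. The scripts were tested on simulated data. A count of 3 or fewer was taken as the floor.

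The transcripts and all lists were chosen with earlier results of these data known. Those named were every call, the 8 highest and the 8 lowest fold changes of each table, the 5 highest and 5 lowest control means, members with a role of their own, and the ends of related lists; others, such as MRPL16, MRPL22, MRPS7, MRPS22 and MRPS31 in GATA3 KO, were chosen after their values were seen. Each embryo is a separate sample in the labels, and the labels do not tie embryos to cultures or sires, so p-values measure the spread between these embryos.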

Additional observations from a re-analysis of the deposited data

Results flagged for a closer look

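Gaps inside the KO groups were examined for the 29 transcripts named by rule in GATA3 KO, the 31 in CDX2 KO, and the share of counts and the median deviation of each knockout, 64 sets of 4 embryos in all, and 4 sets held an embryo that stood apart by Dixon's criterion, where chance alone gives about 3.2. In GATA3 KO embryo 6, MRPL10 was at 51.7 normalized counts, with the other 3 embryos at 28.9 to 32.3, and MRPL9 was at 78.8, with the others at 50.0 to 54.3. In GATA3 KO embryo 3, MRPS30 was at 44.9, with the others at 25.01 to 26.7. In CDX2 KO embryo 2, MRPL48 was at 33.1, with the others at 41.9 to 42.4.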

How the results depend on the processing

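The number of MRP transcripts called in GATA3 KO was 3, and it was 1 with a pseudocount of 0.1, quantile normalization, median-ratio rescaling, edgeR or DESeq2 (MRPL39 each time), 0 without the trend or with a term for Y-linked counts, 4 with a pseudocount of 5, and 0 to 6 when single embryos were left out: 6 without WT control 1, 1 without GATA3 KO embryo 5 or 6, and 0 without WT control 2, WT control 3, or GATA3 KO embryo 3 or 4. The count over all transcripts, 86, ran from 1 with the Y-linked term and 16 without the trend to 172 with no filter, and from 1 to 293 when single embryos were left out. With the Y-linked term the effect rests by construction on the 1 KO embryo with more than 3 Y-linked counts set against the controls, and the MRP median became 0.49 in GATA3 KO and 0.35 in CDX2 KO. The median otherwise ran from 0.16 to 0.29 in GATA3 KO and from -0.45 to -0.14 in CDX2 KO, and without single embryos from 0.14 to 0.34 and from -0.64 to -0.05 (the last without CDX2 KO embryo 3). Quantile and median-ratio scaling brought the median of all transcripts to 0.00 and 0.01 in GATA3 KO, with 46 and 47 MRP transcripts above 0, and to -0.04 and -0.03 in CDX2 KO, with 17 and 19; edgeR and DESeq2 gave 49 and 49 in GATA3 KO and 26 and 28 in CDX2 KO. The count in CDX2 KO was 0 under all of these. A minimum mean of 100 left no MRP transcript. No paired analysis was possible because the KO columns carry numbers that are not matched to the replicate numbers of the labels. Low counts limit CDX2 KO embryo 3, where 26 of the 75 transcripts were at 3 counts or fewer.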
